A study of Mus musculus with 22 samples.

Results

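The genes described here encode the subunits, activators and assembly factors of the proteasome, in RNA of E14 cells, a mouse embryonic stem cell line. They are the rows of both FPKM tables whose symbol is Psma, Psmb, Psmc, Psmd, Psme, Psmf or Psmg followed by a number, with a level of 1 FPKM or more in 2 or more columns of the 12-library table. FPKM, a count of fragments scaled to transcript length and sequencing depth, is a level per length, so different genes can be set side by side. Of 48 rows with such a symbol, 46 passed, out of 24819 rows in the tables. Psmb8, an immunoproteasome subunit, did not exceed 0.105 FPKM in any library of that table, and Psmb11, the thymus-specific catalytic subunit, did not exceed 0.0209 FPKM. The rule itself uses no difference between groups, although it was chosen with earlier results of these data known.

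RNA was taken 3 days after transfection of small interfering RNAs (siRNAs), in 22 libraries that fall into 3 sets. The combined knockdowns were siRpl14 with siRpl11 and siRpl14 with siDux, the single knockdowns were siRpl14, siRpl11 or siDux, each given with siNT, and the control was siNT given with siNT. The meaning of NT is left unexplained by the labels. Every group is the same line, kept without feeder cells on gelatin with leukemia inhibitory factor. Set 1 has 8 libraries, 2 each of siRpl14+siRpl11, siRpl14, siRpl11 and siNT. Set 2 has 1 library each of siRpl14+siDux, siRpl14, siDux and siNT and shares a table with set 1; the division of that table into 2 sets rests on the style of the titles. Set 3 is the other table, with 2 libraries each of siRpl14+siDux, siRpl14, siDux and siNT and 1 each of siRpl14+siRpl11 and siRpl11. Rpl14 and Rpl11 are genes of the large subunit of the ribosome, and Dux encodes a transcription factor of the early embryo. Nothing in the labels states that replicates came from separate cultures; the p-values below therefore reflect the spread between libraries, which may be technical.

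The proteasome is the protease that degrades ubiquitin-tagged proteins. Its 20S core is a barrel of alpha and beta rings, in which only the beta subunits Psmb5, Psmb6 and Psmb7 cut protein. The 19S regulatory particle has a base, whose ring of ATPases unfolds the substrate and opens the core, and a lid, which removes the ubiquitin. PA28 and PA200 are other activators that bind the end of the core, and dedicated chaperones, which are not part of the finished particle, guide the assembly of core and base. When proteasome activity falls short, mammalian cells raise most subunit genes together through the transcription factor Nfe2l1, which the protease Ddi2 activates.

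In the siNT libraries of set 1 the 46 genes had a median of 103 FPKM. Psmb3, a beta subunit without catalytic activity, was the most abundant at a mean of 379.9 FPKM, and Psmb9, an immunoproteasome subunit, the least abundant at 2.28 FPKM. The 14 subunits of the standard 20S core had a median of 207 FPKM, the 6 ATPases of the base a median of 98.4 FPKM and the 8 lid subunits a median of 103 FPKM. Psma8, the testis form of an alpha subunit, was at 9.06 FPKM, and the PA28 genes Psme1, Psme2 and Psme3 lay between 24.4 and 81.7 FPKM.

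The siRNA targets were lowered to varying degrees. In set 1, Rpl14 stood at 15.6% and 35.3% of the siNT mean with siRpl14+siRpl11 and at 60.2% and 27.1% with siRpl14, and Rpl11 at 13.2% and 33.4% with siRpl14+siRpl11 and at 34.9% and 15.2% with siRpl11. Within a group the spread of the 46 genes was small in set 1, with a median SD of 0.10 on the log2 scale, against 0.34 for the 44 genes tested in set 3, where 2 to 6 of the 46 genes were listed at 0 in a library. Read counts were not used here, so depth is unknown. All 8 stem cell markers, such as Pou5f1, Sox2 and Nanog, were at a mean of 1 FPKM or more in every group, with sums of 5668 to 5828 FPKM with siRpl14+siRpl11, 5205 to 5748 with siRpl14, 6537 to 6779 with siRpl11 and 7774 to 8689 with siNT in set 1. The markers did not move alike. Nanog, Zfp42, Esrrb, Klf4, Tdgf1 and Dppa5a were lower than with siNT in every knockdown library of set 1. Sox2 was higher in every one, at 256 to 323 FPKM against 224 and 219 FPKM with siNT. Pou5f1 had 1086 and 948 FPKM with siRpl14+siRpl11 and 815 and 881 FPKM with siRpl14. It had 1088 and 1245 FPKM with siRpl11, against 945 and 950 FPKM with siNT. Of 8 fibroblast markers, Dcn and Postn were at 0 in every library, and the sum in set 1 was 4.96 to 6.80 FPKM with siRpl14+siRpl11, 5.56 to 9.85 with siRpl14, 5.25 to 6.45 with siRpl11 and 18.2 to 18.8 with siNT. Most of this sum was Thy1, at 15.0 and 15.2 FPKM with siNT and 4.44 to 8.11 FPKM in the knockdown libraries. Pdgfrb had 3.39 and 2.70 FPKM with siNT and 0.292 to 0.898 FPKM in the others. The collagen genes Col1a1, Col1a2 and Col3a1 stayed under 1 FPKM in set 1. Of 6 primitive endoderm markers 3 were tested, none was called against siNT by limma, and the sums in set 1 were 3.43 to 7.84 FPKM with siRpl14+siRpl11, 4.42 to 8.62 with siRpl14, 3.32 to 6.99 with siRpl11 and 3.16 to 4.93 with siNT. What part these differences have in the results below was not tested.

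In set 1 the proteasome genes did not move as a block. With siRpl11 the 3 catalytic core subunits and 5 of the 6 ATPases were higher than with siNT, while none of the 7 alpha subunits and none of the 4 other standard beta subunits passed the test. The same division by role was found with siRpl14+siRpl11, measured against the same siNT libraries. With siRpl14 alone only 2 ATPases and 2 other genes rose and 1 assembly chaperone fell. In these bulk samples fewer cells of a type and less RNA per cell cannot be told apart.

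Differences were tested with limma on log2(FPKM + 1), with p-values adjusted by the Benjamini-Hochberg method over all 12129 genes tested in set 1 and a threshold of 0.05. All 46 proteasome genes were tested. With siRpl14+siRpl11, 13 of the 46 differed from siNT (11 higher, 2 lower), where 41.6% of all genes tested did. With siRpl14, 5 differed (4 higher, 1 lower), against 31.5% of all genes. With siRpl11, 16 differed (12 higher, 4 lower), against 44.3% of all genes. In each of the 3 comparisons the share of proteasome genes called was below that of all genes. By direction, 16.6% of all genes were called higher and 25% lower with siRpl14+siRpl11, 18.1% and 13.4% with siRpl14, and 16% and 28.4% with siRpl11. The proteasome genes called higher were a larger share than this in both groups with siRpl11, and those called lower were a smaller share in all 3 groups. The median log2 difference of the 46 genes was 0.01 with siRpl14+siRpl11, 0.00 with siRpl14 and 0.01 with siRpl11, beside -0.07, 0.03 and -0.11 over all genes. The 3 comparisons share their siNT libraries and are not independent.

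These counts depend on single libraries. With siRpl14+siRpl11 the 13 became 2 without replicate 1 of that group, 3 without replicate 1 of siNT and 7 without replicate 2 of siNT. With siRpl14 the 5 became 0 without replicate 2 of siRpl14 or without replicate 1 of siNT (limma, with 9 and 3 genes at an unadjusted p under 0.05), and 2 without replicate 2 of siNT. With siRpl11 the 16 became 3 without replicate 2 of siRpl11, 4 without replicate 1 of siNT and 6 without replicate 2 of siNT. Over all 8 libraries left out in turn, Psmc5 and Psmc6 passed the test each time in both comparisons that include siRpl11, and Psmb6 each time with siRpl11 alone.

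**Figure D1:**
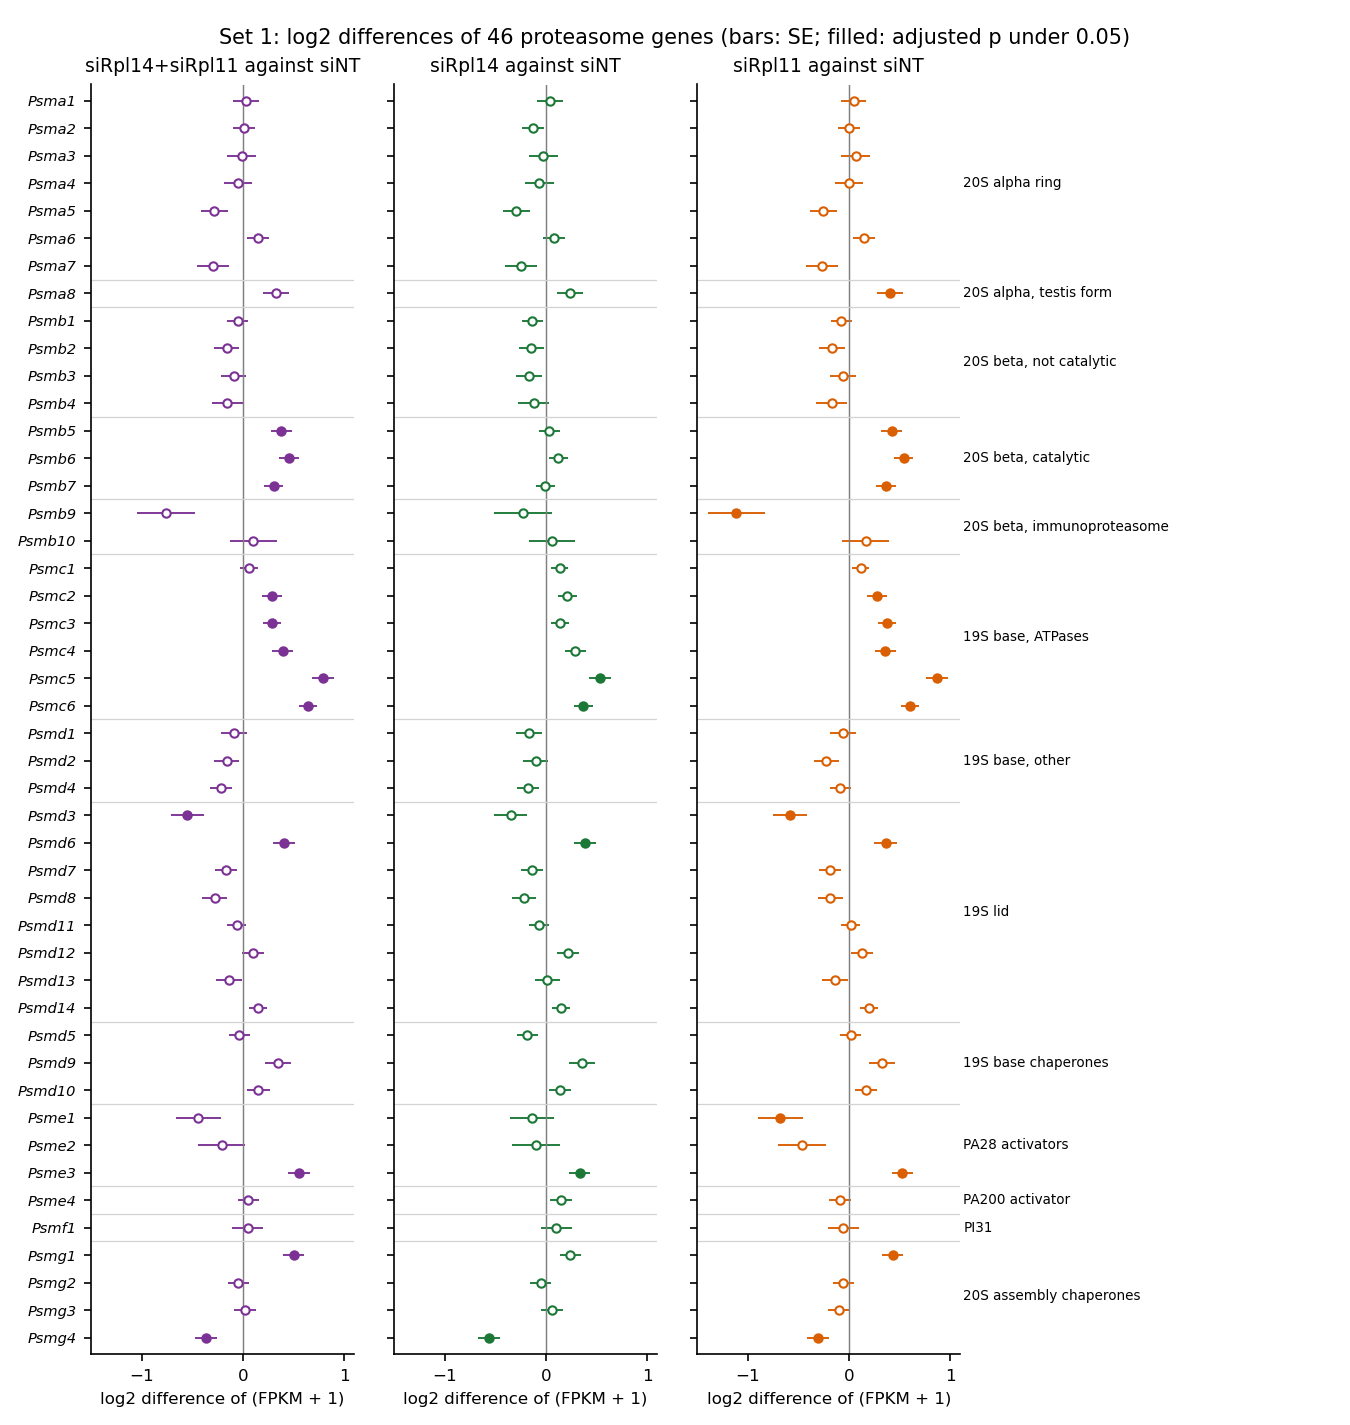
Log2 differences of the 46 proteasome genes from siNT in set 1, by role, for siRpl14+siRpl11, siRpl14 and siRpl11. Points are fitted differences on log2(FPKM + 1), bars are SE, and filled points passed an adjusted p of 0.05 (limma). The catalytic subunits and ATPases lie right of 0 with siRpl11 and siRpl14+siRpl11, while the alpha ring genes lie on both sides of 0 and none is filled.

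The catalytic core subunits are described first. Psmb5 carries the chymotrypsin-like activity of the core, the site at which proteasome inhibitors such as bortezomib bind. It had 219 and 199 FPKM with siRpl14+siRpl11, 166 and 162 FPKM with siRpl14 and 201 and 229 FPKM with siRpl11, against 165 and 155 FPKM with siNT. Every library with siRpl11 was above every library without it, and the siRpl14 libraries overlapped siNT. The log2 difference from siNT was 0.38 ± 0.10 with siRpl14+siRpl11 (SE; limma, adjusted p = 0.0221), 0.03 ± 0.10 with siRpl14 (adjusted p = 0.825) and 0.42 ± 0.10 with siRpl11 (adjusted p = 0.0146). The call with siRpl14+siRpl11 was lost without replicate 1 of that group or either siNT library, and the call with siRpl11 without replicate 2 of siRpl11 or either siNT library. Reads of Psmb5 may be shared with the pseudogene Gm3375, whose transcript is 98.9% identical over 796 bases. Exons of Psmb5 also overlap Mir686, a microRNA gene on the same strand, in the GRCm38 annotation.

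Psmb6, the caspase-like subunit, had 340.2 and 337 FPKM with siRpl14+siRpl11, 259 and 279 FPKM with siRpl14 and 358 and 360.3 FPKM with siRpl11, against 259 and 235 FPKM with siNT. Again all 4 libraries with siRpl11 were above the other 4. The difference from siNT was 0.46 ± 0.10 with siRpl14+siRpl11 (limma, adjusted p = 0.0098), 0.12 ± 0.10 with siRpl14 and 0.54 ± 0.10 with siRpl11 (adjusted p = 0.0053), and only the call with siRpl14+siRpl11 could be lost, without replicate 1 of that group.

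Psmb7, the trypsin-like subunit, had 418 and 414 FPKM with siRpl14+siRpl11, 346 and 323 FPKM with siRpl14 and 447 and 419.9 FPKM with siRpl11, against 342 and 329.96 FPKM with siNT. The groups divided in the same way, with differences of 0.31 ± 0.09, -0.01 ± 0.09 and 0.37 ± 0.09 in the same order of groups (limma, adjusted p = 0.0333 with siRpl14+siRpl11 and 0.017 with siRpl11). Each of these calls was lost without either library of its own group or either siNT library, and that with siRpl14+siRpl11 also without either siRpl11 library. Exons of Psmb7 overlap those of Nek6 on the other strand in the GRCm38 annotation, and no source used here says whether the counting used strand.

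The other 11 subunits of the standard core did not follow. With siRpl11 the 7 alpha subunits had differences of -0.26 (Psma7) to 0.15 (Psma6), and the beta subunits Psmb1, Psmb2, Psmb3 and Psmb4 lay between -0.17 and -0.06. None of the 11 was called in set 1 in any of the comparisons with siNT, although Psma5 was lower with siRpl14 when sets 1 and 2 were fitted together. Psma2, one of the alpha ring, had 285 and 289 FPKM with siRpl14+siRpl11, 279.7 and 244 FPKM with siRpl14 and 304 and 269 FPKM with siRpl11, against 289.95 and 281 FPKM with siNT, and the groups overlapped. Psma8, the testis form, was the exception among alpha genes at a low level, with 10.8 and 12.4 FPKM with siRpl14+siRpl11, 11.2 and 10.5 FPKM with siRpl14 and 13.5 and 11.2 FPKM with siRpl11, against 9.29 and 8.82 FPKM with siNT. It was called with siRpl11 (0.40 ± 0.13, limma, adjusted p = 0.0355), and the call was lost without either siRpl11 or either siNT library.

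Among the 6 ATPases of the 19S base the rise was largest in Psmc5. It had 195 and 177 FPKM with siRpl14+siRpl11, 151 and 161 FPKM with siRpl14 and 187 and 206 FPKM with siRpl11, against 101 and 114 FPKM with siNT. All 6 knockdown libraries were above both siNT libraries, and the siRpl14 libraries were below all 4 with siRpl11. The difference was 0.79 ± 0.11 with siRpl14+siRpl11 (limma, adjusted p = 0.00331), 0.54 ± 0.11 with siRpl14 (adjusted p = 0.0113, lost without replicate 2 of siRpl14 or replicate 1 of siNT) and 0.87 ± 0.11 with siRpl11 (adjusted p = 0.00249).

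Psmc6 had 103 and 98.1 FPKM with siRpl14+siRpl11, 86.6 and 79.5 FPKM with siRpl14 and 97.3 and 98.3 FPKM with siRpl11, against 62.7 and 65.4 FPKM with siNT. As for Psmc5, all 6 knockdown libraries were above both siNT libraries and the siRpl14 libraries below all 4 with siRpl11. The difference was 0.64 ± 0.09 (limma, adjusted p = 0.00362), 0.37 ± 0.09 (adjusted p = 0.022, lost without any 1 of the siRpl14 or siNT libraries, and in a fit of sets 1 and 2 together, where the difference was 0.23 with an adjusted p of 0.0744) and 0.60 ± 0.09 (adjusted p = 0.0037) in the same order of groups. Psmc2, Psmc3 and Psmc4 rose less, by 0.28 to 0.38 with siRpl11 and by 0.29 to 0.39 with siRpl14+siRpl11, and were not called with siRpl14 (0.14 to 0.29). In both groups Psmc2 lost its call without any 1 library other than the siRpl14 libraries, as did Psmc3 with siRpl14+siRpl11. Psmc3 with siRpl11 lost it without replicate 2 of siRpl11 or of siNT, and Psmc4 without replicate 1 of siNT, replicate 1 of siRpl14+siRpl11 in that comparison, or either siRpl11 library in the other. Exons of Psmc3 overlap those of Slc39a13 on the other strand. Psmc1 was called in none of the comparisons, with a difference of 0.12 ± 0.09 with siRpl11. Over all 8 libraries of set 1 it had the lowest coefficient of variation of the 46 genes, at 4.27%.

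**Figure D2:**
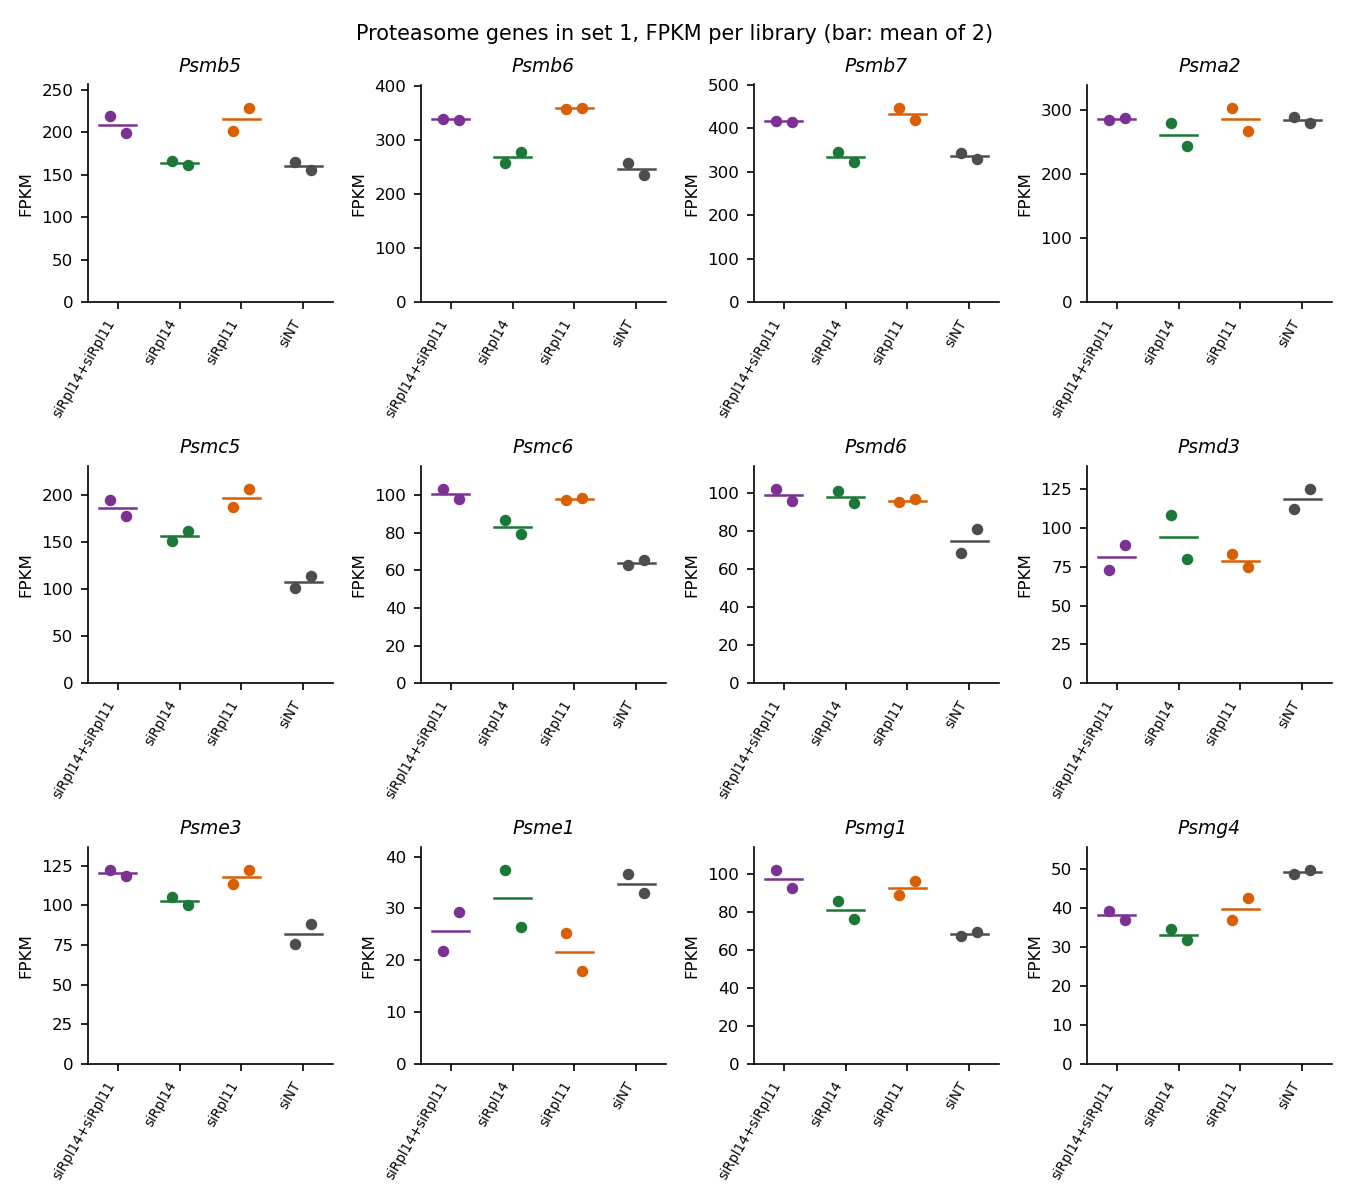
FPKM per library of 12 proteasome genes in set 1; points are libraries, bars the mean of 2, and the axis starts at 0. Psmb5, Psmb6 and Psmb7 are higher in the 4 libraries with siRpl11 than in the 4 without, Psmc5 and Psmc6 are higher in all 6 knockdown libraries than with siNT, and Psma2 overlaps between groups.

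The sequence at the start of these genes was read, because Nfe2l1 acts through the antioxidant response element, whose core letters are TGACNNNGC. RefSeq gives a window of 300 bases spanning the start on GRCm38.p6 for 38 of the 46 genes. That build belongs to the RefSeq windows and is not the mm9 build of the expression files. The windows of Psmb5 (chr14:54617946-54618245, minus strand), Psmb6 (chr11:70525107-70525406, plus strand), Psmc6 (chr14:45329574-45329873, plus strand) and Psmc5 (chr11:106255935-106256234, plus strand) are shown 5′ to 3′ since these are the catalytic and ATPase genes that rose most among those with a window. Capitals mark a match to TGACNNNGC on either strand.
Psmb5: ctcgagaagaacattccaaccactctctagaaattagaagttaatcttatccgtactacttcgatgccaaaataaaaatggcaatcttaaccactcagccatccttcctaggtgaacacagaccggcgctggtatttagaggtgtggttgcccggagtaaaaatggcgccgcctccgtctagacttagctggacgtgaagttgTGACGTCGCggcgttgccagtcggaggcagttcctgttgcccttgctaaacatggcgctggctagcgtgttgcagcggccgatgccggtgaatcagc
Psmb6: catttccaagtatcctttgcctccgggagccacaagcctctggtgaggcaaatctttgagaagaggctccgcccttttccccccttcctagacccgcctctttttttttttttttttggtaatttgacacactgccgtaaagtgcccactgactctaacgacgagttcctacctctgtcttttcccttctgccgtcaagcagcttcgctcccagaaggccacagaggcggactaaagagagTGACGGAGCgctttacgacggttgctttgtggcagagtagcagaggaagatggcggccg
Psmc6: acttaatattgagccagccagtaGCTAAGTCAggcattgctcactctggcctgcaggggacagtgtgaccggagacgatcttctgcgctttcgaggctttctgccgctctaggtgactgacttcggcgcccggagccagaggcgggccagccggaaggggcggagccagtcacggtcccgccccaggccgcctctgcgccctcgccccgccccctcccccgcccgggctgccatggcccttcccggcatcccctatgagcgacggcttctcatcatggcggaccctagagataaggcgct
Psmc5: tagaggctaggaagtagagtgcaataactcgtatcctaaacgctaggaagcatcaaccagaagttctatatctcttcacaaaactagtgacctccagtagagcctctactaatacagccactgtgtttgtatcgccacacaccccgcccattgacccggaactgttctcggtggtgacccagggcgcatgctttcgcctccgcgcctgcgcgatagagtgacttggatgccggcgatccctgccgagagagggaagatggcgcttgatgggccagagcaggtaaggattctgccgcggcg
The match in Psmb5 began at position -47 from the start and that in Psmb6 at -9, both on the strand of the gene. The match in Psmc6, at -227, was on the other strand, and the window of Psmc5 held no match. Across the family 6 of 38 windows (15.8%) held these letters, against 14% of the windows of all 27025 genes. They were in 3 of the 9 windows of genes higher with siRpl11 (Psmb5, Psmb6 and Psmc6) and in 3 of the 29 others (Psmd12, Psmd9 and Psme4). CCAAT, the NF-Y motif, searched on both strands and counted apart from the first so that matches may overlap, was in 13 of 38 windows (34.2%), against 41.1% of all genes. A match describes the letters in the window and is not a measured binding site.

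In the rest of the 19S particle, 3 base subunits, Psmd1, Psmd2 and Psmd4, were called in no comparison with siNT. Of the 8 lid subunits, Psmd6 rose and Psmd3 fell. Psmd6 had 102 and 96.0 FPKM with siRpl14+siRpl11, 101 and 94.5 FPKM with siRpl14 and 95.3 and 96.7 FPKM with siRpl11, against 68.3 and 81.3 FPKM with siNT. The 6 knockdown libraries were all above siNT and hardly differed among themselves, and the difference was 0.41 ± 0.11 with siRpl14+siRpl11, 0.39 ± 0.11 with siRpl14 and 0.36 ± 0.11 with siRpl11 (limma, adjusted p = 0.0216, 0.032 and 0.0303). Each call was lost without replicate 1 of siNT or replicate 1 of its own knockdown group, and those of the single knockdowns also without replicate 2 of their group.

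Psmd3 had 73.0 and 89.3 FPKM with siRpl14+siRpl11, 108 and 79.9 FPKM with siRpl14 and 83.3 and 74.7 FPKM with siRpl11, against 112 and 125 FPKM with siNT. All knockdown libraries were below siNT, by the least in replicate 1 of siRpl14. Psmd3 fell by 0.55 ± 0.16 on the log2 scale with siRpl14+siRpl11 and by 0.58 ± 0.16 with siRpl11 (limma, adjusted p = 0.0305 and 0.0235). The first call was lost without replicate 1 of siRpl14+siRpl11, the second without replicate 2 of siRpl11, and both without either siNT library. With siRpl14 the difference was -0.35 ± 0.16 (adjusted p = 0.136). Psmd14, the lid enzyme that cleaves ubiquitin from the substrate, was not called, with differences of 0.15 to 0.20. The base assembly chaperones Psmd5, Psmd9 and Psmd10 were not called, the highest being Psmd9 with 0.36 ± 0.13 in siRpl14 (limma, adjusted p = 0.0683).

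The activators divided by subunit. Psme3, which forms the nuclear PA28 gamma ring, had 122 and 118 FPKM with siRpl14+siRpl11, 106 and 100.3 FPKM with siRpl14 and 113 and 122 FPKM with siRpl11, against 75.4 and 88.0 FPKM with siNT. All knockdown libraries were above siNT, and the difference was 0.56 ± 0.11, 0.33 ± 0.11 and 0.53 ± 0.11 in the same order (limma, adjusted p = 0.0073, 0.0459 and 0.0075). The call with siRpl14 was lost whichever of the 8 libraries was left out, and the others without replicate 1 of siNT, replicate 1 of siRpl14+siRpl11 or, with siRpl11, replicate 2 of siRpl11.

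Psme1 encodes the alpha subunit of the interferon-inducible PA28 ring. It had 21.9 and 29.3 FPKM with siRpl14+siRpl11, 37.4 and 26.4 FPKM with siRpl14 and 25.3 and 17.9 FPKM with siRpl11, against 36.6 and 32.9 FPKM with siNT. It was lower with siRpl11 (-0.68 ± 0.22, limma, adjusted p = 0.0382), but this call was lost under both other scalings and without replicate 2 of siRpl11 or either siNT library. Exons of Psme1 overlap those of Emc9 on the other strand. Its partner Psme2 had 19.9 and 22.1 FPKM with siRpl14+siRpl11, 28.1 and 18.3 FPKM with siRpl14 and 21.5 and 14.1 FPKM with siRpl11, against 25.8 and 23.0 FPKM with siNT. The siRpl14 libraries straddled siNT, and no difference passed. Reads of Psme2 may be shared with Psme2b, whose transcript is 99.4% identical over 794 bases. Psme4, which is PA200, had 31.6 and 33.98 FPKM with siRpl14+siRpl11, 33.9 and 36.2 FPKM with siRpl14 and 30.1 and 29.0 FPKM with siRpl11, against 29.4 and 33.8 FPKM with siNT. It was called in no comparison, nor was Psmf1, the proteasome inhibitor PI31.

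The immunoproteasome genes were low. Psmb9 had 0.897 and 0.974 FPKM with siRpl14+siRpl11, 2.70 and 1.11 FPKM with siRpl14 and 0.841 and 0.243 FPKM with siRpl11, against 2.62 and 1.95 FPKM with siNT. Every library with siRpl11 was below every library without it, and replicate 1 of siRpl14 was level with siNT. The difference was -0.76 ± 0.29 with siRpl14+siRpl11 (limma, adjusted p = 0.0641) and -1.11 ± 0.29 with siRpl11 (adjusted p = 0.0168, lost without replicate 2 of siRpl11 or either siNT library). Psmb9 reached 1 FPKM only in libraries without siRpl11, so in set 1 it passed the filter through the side where it is high. Its call with siRpl11 held with no filter on low values. The call is counted in the totals above and is not used further. Exons of Psmb9 overlap those of Tap1 on the other strand, and Tap1, a peptide transporter of antigen presentation, rose with siRpl14 by 2.27 ± 0.25 (limma, adjusted p = 0.0017), so reads of the 2 genes may not be separable. Psmb10 had 16.4 and 20.7 FPKM with siRpl14+siRpl11, 22.3 and 14.2 FPKM with siRpl14 and 22.6 and 16.3 FPKM with siRpl11, against 16.1 and 18.1 FPKM with siNT, and the groups overlapped.

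Of the 4 core assembly chaperones, Psmg1 rose and Psmg4 fell. Psmg1 had 102 and 92.7 FPKM with siRpl14+siRpl11, 85.9 and 76.4 FPKM with siRpl14 and 88.8 and 96.5 FPKM with siRpl11, against 67.4 and 69.4 FPKM with siNT. All knockdown libraries were above siNT, with a rise of 0.50 ± 0.10 with siRpl14+siRpl11 and of 0.43 ± 0.10 with siRpl11 (limma, adjusted p = 0.0095 and 0.014), and a difference of 0.24 ± 0.10 with siRpl14 (adjusted p = 0.11). The calls were lost without replicate 1 of siNT, replicate 1 of siRpl14+siRpl11, or, with siRpl11, replicate 2 of siRpl11 or of siNT.

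Psmg4 had 39.4 and 36.9 FPKM with siRpl14+siRpl11, 34.6 and 31.8 FPKM with siRpl14 and 37.1 and 42.6 FPKM with siRpl11, against 48.9 and 49.8 FPKM with siNT. Of the 46 it alone was called lower with siRpl14, at -0.56 ± 0.11 (limma, adjusted p = 0.0095), and it was also lower with siRpl14+siRpl11 (-0.36 ± 0.11, adjusted p = 0.0293) and siRpl11 (-0.31 ± 0.11, adjusted p = 0.0488). All 6 knockdown libraries were below siNT. The call with siRpl14 was lost without replicate 2 of siRpl14 or either siNT library, and the other calls without either library of their own group or of siNT, with siRpl11 also without either siRpl14+siRpl11 library, and under median-ratio rescaling. Psmg2, the partner of Psmg1, and Psmg3, the partner of Psmg4, were called in no comparison.

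**Figure D3:**
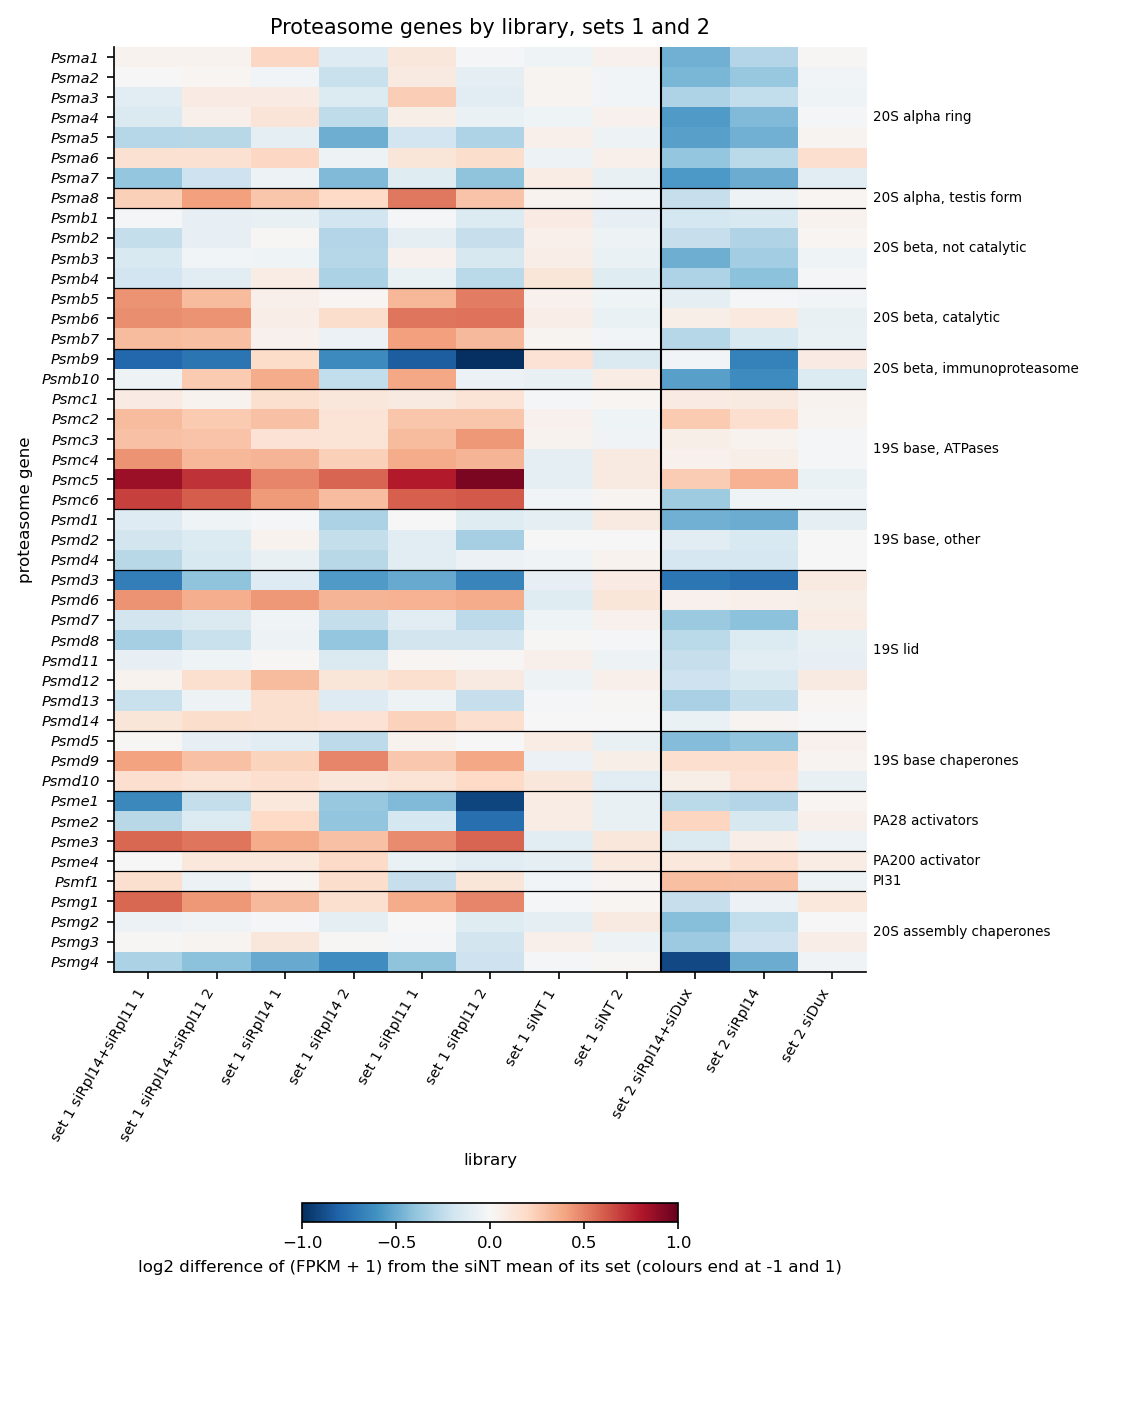
Each library's log2 difference of (FPKM + 1) from the siNT mean of its own set for the 46 proteasome genes, grouped by role; red is higher and blue lower. Psmb5 to Psmb7 and Psmc2 to Psmc6 are red in the siRpl11 libraries of set 1, Psmd3 and Psmg4 are blue in all siRpl14 libraries of both sets, and the siDux library of set 2 is close to white.

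Adding siRpl11 to siRpl14 is compared next. Between siRpl14+siRpl11 and siRpl14 no proteasome gene was called by limma, with 6 at an unadjusted p under 0.05, where 7.24% of all genes were called (0.627% higher, 6.61% lower). The 6 were all higher with siRpl14+siRpl11. They were Psmb5 (0.35 ± 0.10, limma, adjusted p = 0.0895), Psmb6 (0.33 ± 0.10, adjusted p = 0.0823) and Psmb7 (0.31 ± 0.09, adjusted p = 0.0924), and beside them Psmc5, Psmc6 and Psmg1 (0.25 to 0.28). In the interaction, which asks whether the combined knockdown differs from the sum of the single ones, no gene was called by limma either, with 3 at an unadjusted p under 0.05 and 4.49% of all genes called (1.83% higher, 2.65% lower). The 3 were Psmc5 (-0.61 ± 0.15, limma, adjusted p = 0.0608), Psmc6 (-0.33 ± 0.13, adjusted p = 0.147) and Psmg4 (0.50 ± 0.15, adjusted p = 0.086). In both comparisons the shares of all genes are at an adjusted p under 0.05 (limma). The counts of 6 and 3 are at an unadjusted p, so they cannot be set against these shares.

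The single knockdowns were also set against each other, a comparison added after the data were seen. Between siRpl11 and siRpl14, 3 proteasome genes were called, all higher with siRpl11, where 13.4% of all genes were called, 1.45% higher and 12% lower. They were the catalytic subunits Psmb5 (0.39 ± 0.10, limma, adjusted p = 0.0459), Psmb6 (0.42 ± 0.10, adjusted p = 0.0282) and Psmb7 (0.37 ± 0.09, adjusted p = 0.0382). These calls were not firm, since leaving out each of the 8 libraries in turn gave 0 or 1 gene (limma, with 2 to 9 genes at an unadjusted p under 0.05 where none was called), while quantile normalization gave 0 (8 at an unadjusted p under 0.05) and median-ratio rescaling 6.

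A second added comparison set the mean of the siRpl14+siRpl11 and siRpl11 groups against the mean of the siRpl14 and siNT groups, 4 libraries against 4. Here 12 of the 46 genes were called, 9 higher and 3 lower, against 42.2% of all genes, with 12.1% higher and 30.1% lower. The genes higher with siRpl11 were Psmb5 (0.38 ± 0.07), Psmb6 (0.44 ± 0.07), Psmb7 (0.34 ± 0.07), Psmc3, Psmc4, Psmc5 (0.56 ± 0.08), Psmc6 (0.44 ± 0.07), Psme3 and Psmg1. The genes lower were Psmb9 (-0.82 ± 0.20), Psme1 (-0.49 ± 0.16) and Psmd3 (-0.39 ± 0.12). In set 1 Psmb9 passed the filter only through the libraries without siRpl11, where it is high. It is counted in the 12, but its call is not used further. Psmb5, Psmb6, Psmb7, Psmc5, Psmc6, Psme3 and Psmg1 passed whichever library was left out and under each of the 7 other settings, and the count was 8 to 12 with a library left out. It was 8 without replicate 1 of siRpl14+siRpl11, replicate 2 of siRpl11 or replicate 1 of siNT. Under quantile normalization 11 were higher and 1 lower, and under median-ratio rescaling 14 were higher and 1 lower, and the median of all genes was 0.01 and -0.02 on these scales, against -0.12 as deposited.

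Set 2, with 1 library a group, was described without a test of its own. With siRpl14, 13 of the 46 genes were above siNT, with a median log2 difference of -0.16, beside 0.01 over all genes. Psmc5 had 162 FPKM with siRpl14+siDux, 174 FPKM with siRpl14 and 130.3 FPKM with siDux, against 136 FPKM with siNT. Psmd3 had 81.6 FPKM with siRpl14+siDux, 80.0 FPKM with siRpl14 and 144 FPKM with siDux, against 135 FPKM with siNT. Both genes thus lay, in the 2 libraries with siRpl14, on the side of siNT seen in set 1, as did Psmg4, which had 26.9 FPKM with siRpl14+siDux, 35.9 FPKM with siRpl14 and 49.7 FPKM with siDux, against 51.0 FPKM with siNT. Psmc6 did not, with 69.8 FPKM, 86.8 FPKM and 86.6 FPKM in the same groups, against 89.3 FPKM with siNT. Of the 5 genes called with siRpl14 in set 1, 4 differed in the same direction here, and the share over all genes was not determined. Fitted together, with a term for the set, sets 1 and 2 gave 7 proteasome genes called between siRpl14 and siNT, where 5904 of all 12375 genes were called. Psmc5, Psmd6 and Psmd9 were higher, and Psmg4, Psmd3 (-0.48, limma, adjusted p = 0.0198), Psma5 (-0.36, adjusted p = 0.0234) and Psmd5 were lower.

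The siDux library of set 2 stood closest to siNT. Its 46 differences ran from -0.14 to 0.17, with a median of 0.00 and 22 of 46 above 0. Between siRpl14+siDux and siRpl14 the median was -0.06, and the range was -0.41 (Psmg4) to 0.65 (Psmb9, at 2.26 FPKM with siRpl14+siDux and 1.08 FPKM with siRpl14).

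Set 3 is the noisier table, and there no proteasome gene was called by limma in any of its 5 comparisons, among 44 genes tested (Psmb9 and Psmg3 did not reach 1 FPKM in 2 libraries). With siRpl14+siDux, 7 genes had an unadjusted p under 0.05, where 1.02% of all 13189 genes were called (0.713% higher, 0.311% lower). With siRpl14 there were 4 such genes and 0.66% of all genes called. With siDux there were 5, and 0.00758% of all genes called. Between siRpl14+siDux and siRpl14 there were 5, and in the interaction of siRpl14 and siDux 3, each with 0.0152% of all genes called. These shares of all genes are at an adjusted p under 0.05 (limma), a stricter threshold than that of the counts. The share of all genes at an unadjusted p under 0.05 is not given here, so no excess can be read from the counts. The SE of a difference had a median of 0.31, against 0.11 in set 1, so differences of the size called in set 1 were for the most part not detectable in set 3.

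Psmb4, a structural beta subunit, had the lowest p of the family against siNT with siRpl14 in set 3. It had 80.6 and 74.3 FPKM with siRpl14+siDux, 45.8 and 28.2 FPKM with siRpl14 and 49.9 and 45.4 FPKM with siDux, against 82.9 and 79.9 FPKM with siNT. The siRpl14 and siDux libraries were below the siRpl14+siDux and siNT libraries, and the siRpl14+siDux libraries were close to siNT. The single siRpl14+siRpl11 library, also given siRpl14, was the highest of the 10 libraries at 85.3 FPKM, and the single siRpl11 library had 74.2 FPKM. The difference from siNT was -1.16 ± 0.26 with siRpl14 (limma, adjusted p = 0.127) and the interaction was 1.85 ± 0.36 (adjusted p = 0.507), so neither passed. In set 2 the same gene had 270.3 FPKM with siRpl14+siDux, 251 FPKM with siRpl14 and 330.2 FPKM with siDux, against 335 FPKM with siNT, and the siDux library was thus level with siNT. Psmd3 in set 3 had 14.6 and 15.3 FPKM with siRpl14+siDux, 26.1 and 37.0 FPKM with siRpl14 and 46.9 and 44.8 FPKM with siDux, against 27.7 and 31.3 FPKM with siNT. It was lowest with siRpl14+siDux, at -1.01 ± 0.26 against siRpl14 (limma, adjusted p = 0.44).

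**Figure D4:**
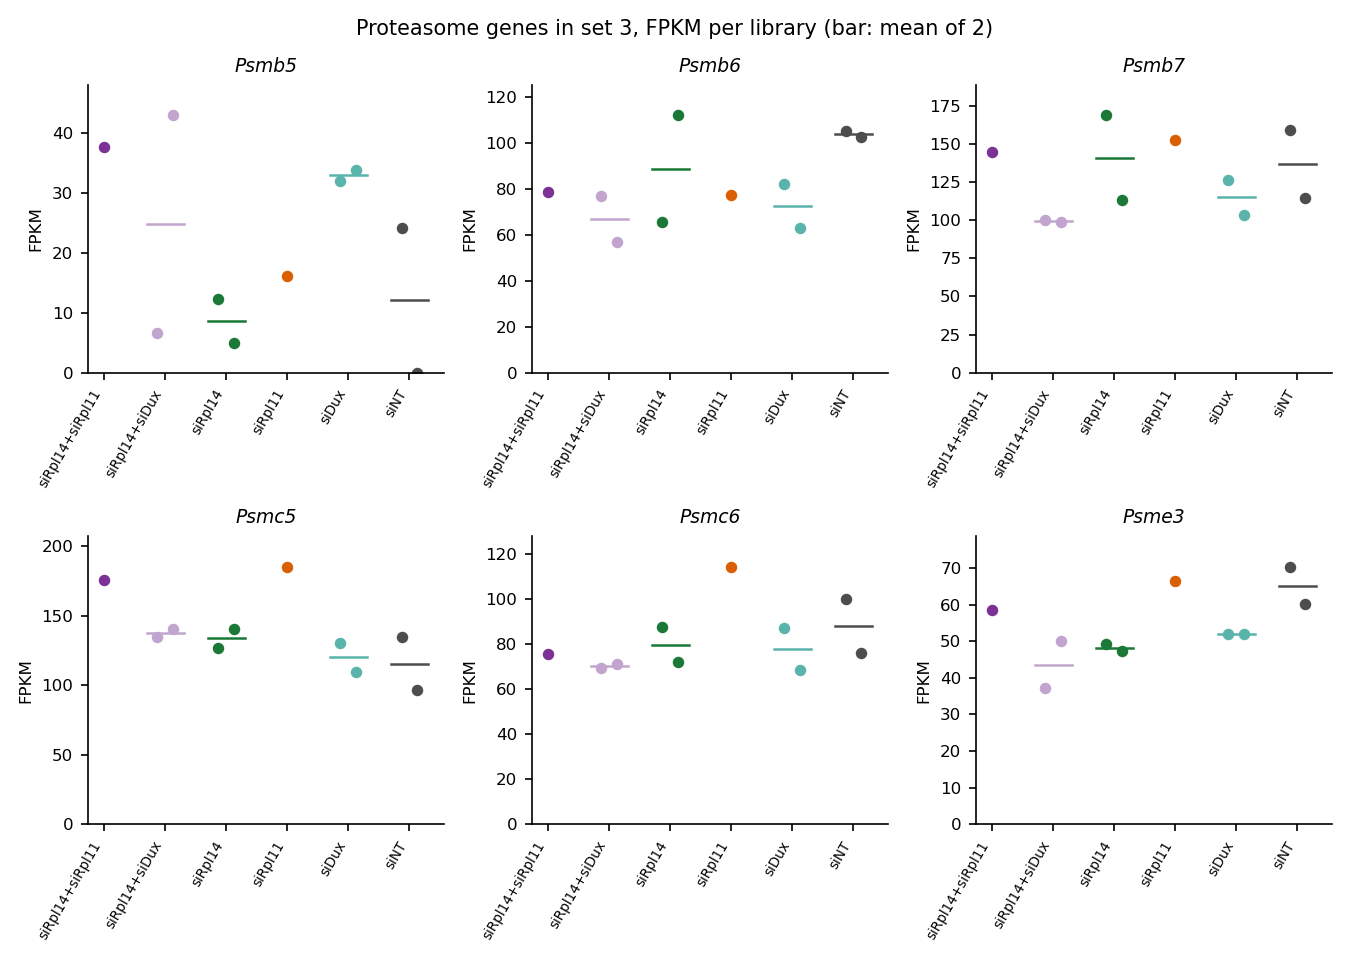
FPKM per library of 6 proteasome genes in set 3; points are libraries, bars the mean of 2 where there are 2, and the axis starts at 0. Psmc5 is highest in the siRpl11 library at 185 FPKM and the siRpl14+siRpl11 library at 175 FPKM, and Psmb5 ranges from 0 to 43.0 FPKM with no order by group.

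The single siRpl14+siRpl11 and siRpl11 libraries of set 3 can only be described. Psmc5 had 175 FPKM with siRpl14+siRpl11 and 185 FPKM with siRpl11, against 135 and 96.3 FPKM with siNT, and both were the highest of the 10 libraries. Psmb6 had 78.7 FPKM with siRpl14+siRpl11 and 77.2 FPKM with siRpl11, against 105 and 102 FPKM with siNT, which is the opposite of set 1. Psmb7 had 145 FPKM with siRpl14+siRpl11 and 153 FPKM with siRpl11, which lies between the 2 siNT libraries at 159 and 115 FPKM. Psmb5 was listed at 0 in replicate 2 of siNT and at 37.7 FPKM with siRpl14+siRpl11, and no fold is given. Of the 13 genes called with siRpl14+siRpl11 in set 1, 7 differed in the same direction here, and of the 16 called with siRpl11, 12 did. With siRpl14+siRpl11 the others were Psmb6, Psmc2, Psmc3, Psmc4, Psmc6 and Psme3, so of the ATPases called only Psmc5 kept its direction. With siRpl11 they were Psmb6, Psmc3, Psmc4 and Psmb9, the last at 0 in every library of set 3. How often all genes called in set 1 kept their direction was not determined.

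A ratio within a library does not depend on its scaling. The FPKM sum of the 6 ATPases was divided by that of the 8 lid subunits, a pairing chosen after the values were seen and given without a test. In set 1 it was 1.07 and 0.955 with siRpl14+siRpl11, 0.830 and 0.943 with siRpl14 and 0.974 and 1.07 with siRpl11, against 0.72 and 0.712 with siNT. In set 2 it was 0.956 with siRpl14+siDux, 0.952 with siRpl14 and 0.716 with siDux, against 0.737 with siNT. In set 3 it was 0.826 with siRpl14+siRpl11, 0.90 and 0.808 with siRpl14+siDux, 0.765 and 0.863 with siRpl14, 0.975 with siRpl11 and 0.73 and 0.727 with siDux, against 0.674 and 0.697 with siNT. In all 3 sets each library with siRpl14 or siRpl11 was thus above each library without them. Taken as a difference of mean log2 levels, which weights each gene equally, this division held in sets 1 and 2 but not in set 3, where replicate 2 of siDux (0.25) was above both siRpl14 libraries (0.14 and 0.11) and the siRpl14+siRpl11 library (0.17). In set 3 the ATPase sum was 416 to 509 FPKM with siRpl14 or siRpl11 and 386 to 451 FPKM without them. The lid sum was 482 to 572 FPKM against 554 to 653 FPKM, so each sum alone overlapped. Psmc5 made up 127 to 185 FPKM of the ATPase sum with them, against 96.3 to 135 FPKM without. The ratio without Psmc5 was not determined.

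The FPKM sum of Psmb5, Psmb6 and Psmb7 over that of the other 11 core subunits followed no such rule across tables. It was 0.456 and 0.42 with siRpl14+siRpl11, 0.324 and 0.393 with siRpl14 and 0.428 and 0.481 with siRpl11, against 0.316 and 0.317 with siNT in set 1. In set 2 it was 0.386 with siRpl14+siDux, 0.394 with siRpl14 and 0.302 with siDux, against 0.314 with siNT. In set 3 it was 0.357 with siRpl14+siRpl11, 0.27 and 0.259 with siRpl14+siDux, 0.296 and 0.307 with siRpl14, 0.284 with siRpl11 and 0.274 and 0.216 with siDux, against 0.27 and 0.257 with siNT. The siRpl14 library of set 1 with the most Rpl14 left, replicate 1 at 60.2% of siNT, had the ratio nearest to siNT among the siRpl14 libraries of sets 1 and 2, where Rpl14 stood at 27.1% in replicate 2 of set 1 and at 34.6% and 35.1% in set 2. In set 3 Rpl14 stood at 28.8% and 22.7% of siNT with siRpl14+siDux, where the ratio was level with siNT. It stood at 26.8% and 24.6% with siRpl14, where the ratio was 0.296 and 0.307, against 0.27 and 0.257 with siNT. With siRpl14+siRpl11 it stood at 17.7%, where the ratio was 0.357. Whether the depth of knockdown has a part in these values was not tested.

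**Figure D5:**
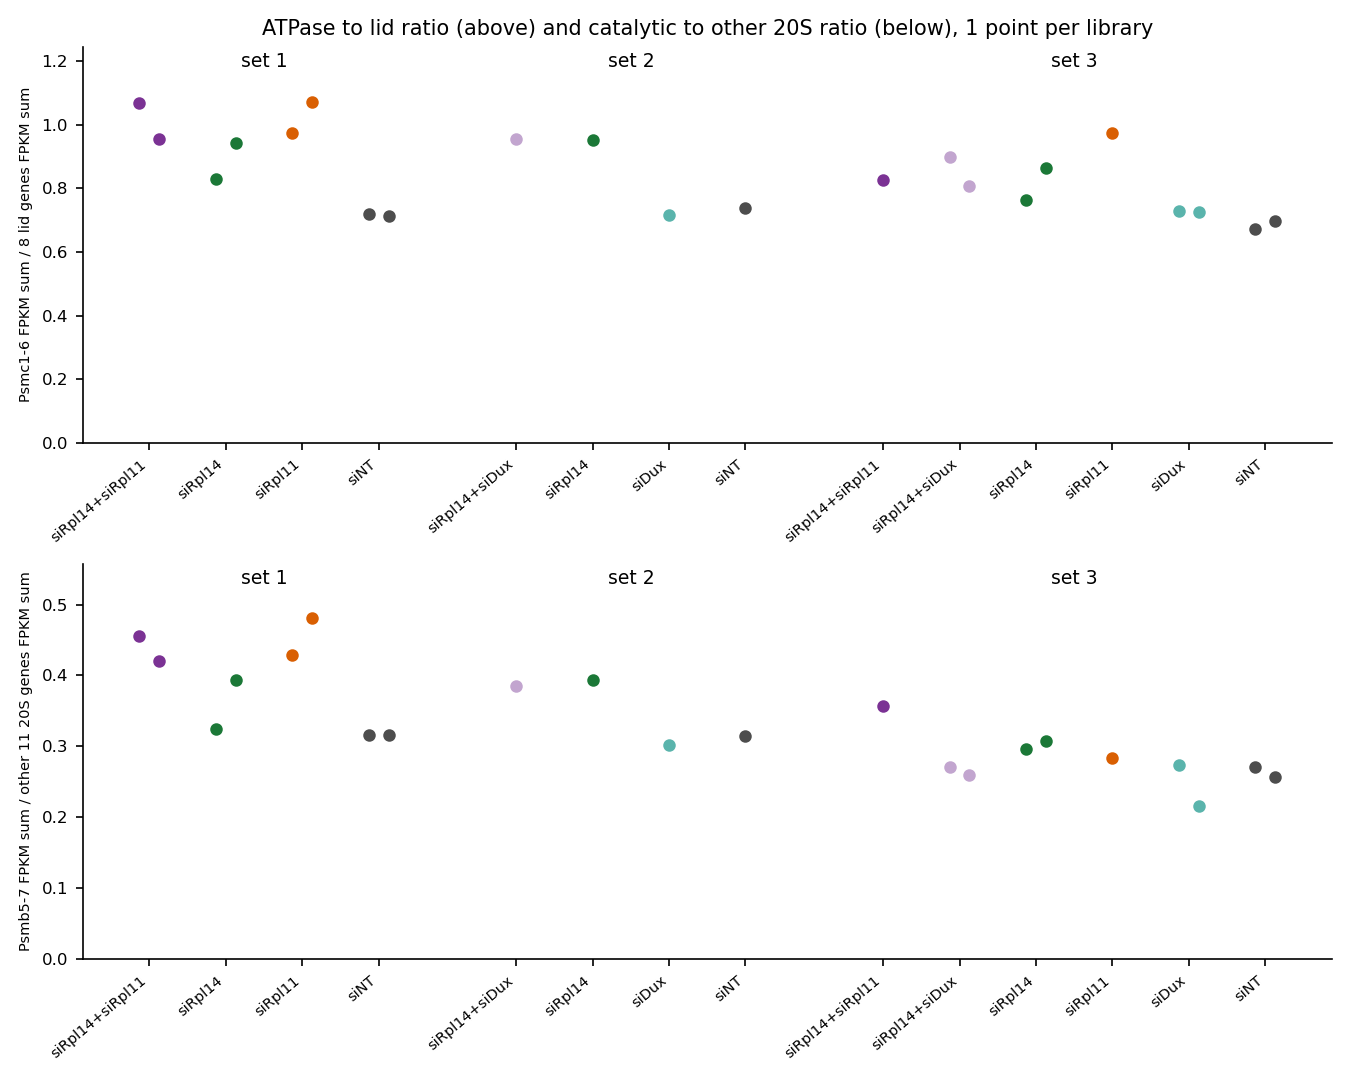
Ratios within each of the 22 libraries, 1 point per library: the 6 ATPases to the 8 lid subunits (above) and Psmb5 to Psmb7 to the other 11 subunits of the 20S core (below), as ratios of FPKM sums. The upper ratio is 0.765 or more in every library with siRpl14 or siRpl11 and 0.737 or less in every other library; the lower ratio is highest with siRpl11 in set 1, at 0.481.

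The regulators of proteasome genes were read at the RNA level. Nfe2l1, the activator named above, had 48.8 and 48.4 FPKM with siRpl14+siRpl11, 47.0 and 48.5 FPKM with siRpl14 and 49.7 and 53.98 FPKM with siRpl11, against 65.5 and 68.3 FPKM with siNT. All 6 knockdown libraries were below siNT, and it fell by 0.45 ± 0.09, by 0.48 ± 0.09 and by 0.36 ± 0.09 on the log2 scale in the same order (limma, adjusted p = 0.00899, 0.01 and 0.0168). The calls were lost without replicate 1 of siRpl14+siRpl11 in the first, without either siNT library in the second, and in the third without either siRpl11 or siNT library or under median-ratio rescaling. In set 2 it had 49.997 FPKM with siRpl14+siDux, 49.0 FPKM with siRpl14 and 62.7 FPKM with siDux, against 67.0 FPKM with siNT. In set 3 it had 27.5 FPKM with siRpl14+siRpl11, 23.6 and 30.4 FPKM with siRpl14+siDux, 32.0 and 26.1 FPKM with siRpl14, 38.2 FPKM with siRpl11 and 42.7 and 37.1 FPKM with siDux, against 57.1 and 34.6 FPKM with siNT. There the libraries with siRpl14 were below both siNT libraries, while the siRpl11 library and both siDux libraries lay between them. These are levels of RNA, whereas Nfe2l1 is known to be controlled mainly as a protein.

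Nfe2l2, the regulator of the oxidative stress response that binds the same element, had 35.7 and 39.2 FPKM with siRpl14+siRpl11, 38.6 and 35.5 FPKM with siRpl14 and 37.5 and 37.9 FPKM with siRpl11, against 48.1 and 48.4 FPKM with siNT. It fell in all 3 groups, by 0.36, by 0.37 and by 0.35 on the log2 scale (limma, adjusted p = 0.0228, 0.0258 and 0.0237), with each call lost without either siNT library and at least 1 library of its own group, and with siRpl11 also under median-ratio rescaling. Maff, a small Maf partner of both, fell by 1.33 ± 0.24 with siRpl14+siRpl11, by 1.42 ± 0.24 with siRpl14 and by 1.23 ± 0.24 with siRpl11 (limma, adjusted p = 0.00637, 0.00642 and 0.00676), and each call was lost without replicate 1 of siNT. Ddi2 had 27.9 and 26.0 FPKM with siRpl14+siRpl11, 27.9 and 29.0 FPKM with siRpl14 and 27.0 and 25.3 FPKM with siRpl11, against 18.2 and 23.7 FPKM with siNT. It rose with siRpl14 (0.44 ± 0.13, limma, adjusted p = 0.0404), a call that was lost without any 1 library other than replicate 2 of siNT, and in the other 2 groups it passed only under another scaling or with replicate 2 of siNT left out.

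Around the members, a list of 39 other genes of the pathway (associated proteins, regulators, ubiquitin genes, shuttles and subunits with other symbols) had 33 tested in set 1. With siRpl14+siRpl11 5 rose and 4 fell, with siRpl14 3 rose and 3 fell, and with siRpl11 7 rose and 5 fell. In each group this was a smaller share of the list than the 41.6%, 31.5% and 44.3% of all genes called. Zfand2a, a stress-induced protein that binds the 19S particle, rose by 0.64 ± 0.17 with siRpl14+siRpl11, 0.64 ± 0.17 with siRpl14 and 0.92 ± 0.17 with siRpl11 (limma, adjusted p = 0.0217, 0.027 and 0.0061). Akirin2, which carries proteasomes into the nucleus, rose by 0.84 ± 0.25 with siRpl14+siRpl11 and 0.96 ± 0.25 with siRpl11 (adjusted p = 0.0308 and 0.0181). Rad23b, a shuttle that brings ubiquitin-tagged proteins to the proteasome, rose by 0.66 ± 0.12 and 0.72 ± 0.12 in these 2 groups (adjusted p = 0.0066 and 0.0046), and Txnl1, a thioredoxin of the 19S particle, rose in all 3 groups, by 0.54 ± 0.13 with siRpl14+siRpl11, 0.68 ± 0.13 with siRpl14 and 0.39 ± 0.13 with siRpl11 (adjusted p = 0.0148, 0.00914 and 0.0416). Sqstm1, the autophagy receptor p62, fell by 0.49 ± 0.11 with siRpl14+siRpl11 (adjusted p = 0.012). Keap1, which holds Nfe2l2 low, fell by 0.64 ± 0.13 with siRpl11 (adjusted p = 0.00695). With siRpl11 Zfand2a and Rad23b kept their calls whichever library was left out, whereas Akirin2 and Keap1 lost theirs without replicate 2 of siRpl11, Akirin2 also without either siNT library. Txnl1 with siRpl11 lost its call without any 1 library other than the siRpl14 libraries. With siRpl14+siRpl11 all 5 genes named for that group lost theirs without replicate 1 of the group, Akirin2 and Sqstm1 also without either siNT library and Zfand2a and Txnl1 also without replicate 1 of siNT. With siRpl14 Zfand2a and Txnl1 lost theirs without replicate 2 of siRpl14 or replicate 1 of siNT, Zfand2a also without replicate 2 of siNT.

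The interferon and antigen presentation list, chosen because Psmb9, Psmb10, Psme1 and Psme2 belong to that response, had 12 of 16 genes tested in set 1. With siRpl14+siRpl11 2 rose and 4 fell, with siRpl14 4 rose and 4 fell, and with siRpl11 1 rose and 4 fell. Of all genes 41.6%, 31.5% and 44.3% were called in the same order. With 12 genes tested, the counts with siRpl14+siRpl11 and with siRpl11 lay near these shares, and no excess is read from them. The count with siRpl14 was a larger share of the list, but part of it came through the filter on low values, so it is not read as a result. The 4 that rose with siRpl14 include Nlrc5 and Tap2, which passed the filter only through the siRpl14 libraries. Nlrc5 reached 1 FPKM only there (1.106 and 1.096 FPKM, against 0.192 and 0.291 FPKM with siNT). Tap2 had 2.27 and 2.48 FPKM there, against 0.902 and 0.711 FPKM with siNT. Elsewhere in set 1 Tap2 reached 1 FPKM only in replicate 2 of siRpl14+siRpl11 (1.19 FPKM). Both genes are included in the counts above, and their calls are not used further. H2-K1, a class I antigen, fell by 1.81 ± 0.22 with siRpl14+siRpl11, fell by 1.61 ± 0.22 with siRpl14 and fell by 1.92 ± 0.22 with siRpl11 (limma, adjusted p = 0.00267, 0.00348 and 0.00239), and H2-D1 and Stat2 fell in all 3 groups too. B2m, the light chain of class I antigens, fell by 1.80 ± 0.22 with siRpl14+siRpl11, fell by 0.90 ± 0.22 with siRpl14 and fell by 1.54 ± 0.22 with siRpl11 (adjusted p = 0.00267, 0.0195 and 0.00306). Irf1, an interferon response factor, rose by 0.49 ± 0.14 with siRpl14+siRpl11 and 0.59 ± 0.14 with siRpl11 (limma, adjusted p = 0.026 and 0.0128). The list thus held genes that rose and genes that fell in each group. The falls of H2-K1 and H2-D1, and the rise of Tap1 with siRpl14, passed whichever library was left out. B2m and Stat2 did so in both groups with siRpl11, but with siRpl14 both lost their calls without replicate 2 of siRpl14 or either siNT library, B2m also without replicate 1 of siRpl14. Irf1 lost its call without replicate 1 of its own group or replicate 1 of siNT, with siRpl14+siRpl11 also without the replicates 2.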

How the data were processed

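RNA-seq libraries of E14 cells were compared. Per the submitters' processing notes, STAR, Cuffnorm and the mm9 build were used. No source used here gives tool versions, the annotation, the strand setting or how Cuffnorm normalized. The authors deposited FPKM values in 2 tables, and since these may differ in their normalization, comparisons stay within a table. From the deposited FPKM, log2(FPKM + 1) was fitted in R 4.3.3 by limma 3.58.1 (with statmod 1.5.0), moderated with a trend and robustly, once for the 8 libraries of set 1 and once for the 8 libraries of set 3 with 2 replicates. A gene was tested where 2 or more libraries of its fit held 1 FPKM or more, with Benjamini-Hochberg adjustment over all such genes. Log2 differences on this scale understate changes of low genes. Set 2 and the single siRpl14+siRpl11 and siRpl11 libraries of set 3 were described without a test. The fit was tested on simulated data.

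The members, gene lists and tests were chosen with earlier results of these data known. Written out per library are the catalytic, immunoproteasome and activator genes, the regulators Nfe2l1, Nfe2l2 and Ddi2, and the 3 with the largest rise and the 3 with the largest fall among the members called in each comparison; the others that are named were chosen after their values were seen. Promoter windows came from RefSeq (GRCm38.p6), matched by symbol. Transcripts at least 95% identical to a member over at least 200 bases were found for 14 of the 46 genes, of which 6 involve another gene in the tables, and exons of 8 members overlap those of another gene in the tables (7 on the other strand).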

Additional observations from a re-analysis of the deposited data

How the results depend on the processing

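The fits were repeated with a pseudocount of 0.25, without a filter on low values, with a filter of 5 FPKM, after quantile normalization, after median-ratio rescaling, without trended and robust moderation, with a replicate block, without each library in turn, and over sets 1 and 2 together or over all 10 libraries of set 3. No named gene reversed direction while called. Leaving out a library gave 0 to 6 proteasome genes called for siRpl14 against siNT (5 with all libraries), 3 to 16 for siRpl11 against siNT (16), 2 to 17 for siRpl14+siRpl11 against siNT (13) and 0 to 1 for siRpl11 against siRpl14 (3). The last comparison gave 0 genes under quantile normalization, 6 under median-ratio rescaling, 1 without trended and robust moderation and 0 with the replicate block, and the interaction in set 1 gave 1 gene under quantile normalization. The causes were not tested. With the replicate block the count for siRpl14 against siNT was 3. The replicate numbers were not taken as pairs, since the labels tie them to nothing shared and not every pair of groups moved together. Deviations of same-numbered libraries correlated at 0.18 to 0.50 among siRpl14, siRpl11 and siNT of set 1, at -0.50 to -0.24 between siRpl14+siRpl11 and these, and at 0.01 to 0.04 in set 3, so variation shared by number is present in part of set 1. In set 3 the count stayed at 0 in each setting run. The median of the 46 genes moved to 0.13 for siRpl11 against siNT, 0.21 for siRpl11 against siRpl14, 0.12 for siRpl14+siRpl11 against siRpl14 and 0.12 with against without siRpl11 under median-ratio rescaling. For siRpl11 against siNT, 14 genes were higher and 2 lower under that rescaling, against 12 and 4. With 2 libraries a group, and no read counts, small differences of low genes such as Psmb9 are beyond what these values can resolve.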
